A study of Oryza sativa with 17 samples.

Results

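The genes described here are those annotated to the photosynthetic apparatus, chosen as the genes whose KEGG annotation in the deposited gene table named the photosynthesis pathway or the antenna protein pathway. Genes that the same annotation also placed in oxidative phosphorylation were left out. The rule gave 80 of the 23223 genes in the table, 16 of them from the antenna pathway and 64 from the photosynthesis pathway. They were measured by RNA-seq of polyA RNA from whole germinating seeds of WR04-6, a weedy rice (Oryza sativa f. spontanea), and of QSZ (Qishanzhan), a cultivated indica rice, to learn how the 2 accessions differ during low temperature germination (LTG). All seeds had been heated to break dormancy and then germinated at 10 °C on moist paper with daily light, and the labels name no other treatment. Time is counted in days after imbibition (DAI). WR04-6 had 3 libraries each at 10, 12 and 14 DAI (9 in all), and QSZ had 2 libraries at 10 DAI and 3 at each later time (8 in all). Each accession is 1 line, so a difference between them is one between these lines, not between weedy and cultivated rice as classes. The libraries of a group are biological replicates of whole seeds, in which fewer cells of a type and less RNA per cell cannot be told apart.

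In the thylakoid membrane of the chloroplast, light is caught by antenna proteins that bind chlorophyll, named LHCB around photosystem II (PSII) and LHCA around photosystem I (PSI). PSII takes electrons from water, and they pass through the cytochrome b6f complex and plastocyanin to PSI and from there to ferredoxin and ferredoxin-NADP+ reductase (FNR). The LHC genes are in the nucleus, are kept low in the dark and in unexpanded tissue, and are switched on as leaf plastids green, whereas the photosystem cores are encoded largely in the plastid, so they are not among polyA-selected nuclear transcripts except as copies that were moved to the nucleus. A germinating seed is mostly endosperm, which does not green. By their annotation, the 80 genes were divided into PSII antenna (9), PSI antenna (6), PSII subunits (12), PSI subunits (8), the b6f complex with electron carriers (14) and other genes (31), of which 16 were nuclear copies of plastid genes.

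Levels are given in FPKM, fragments scaled to transcript length and to the size of the library. Differences are log2 fold changes (log2FC) with a standard error (SE), from edgeR's quasi-likelihood test on the deposited estimated counts of all 21949 genes that reached 0.1 FPKM in at least 2 libraries. A gene was called a differentially expressed gene (DEG) at a Benjamini-Hochberg adjusted p below 0.05 and an absolute log2FC of at least 1, and adjusted p values were taken over all genes tested. Overlap between groups is stated for FPKM, in which the TMM scaling of the test has no part. Of the photosynthesis genes called, 12 of 12 at 10 DAI, 21 of 26 at 12 DAI and 12 of 13 at 14 DAI did not overlap in FPKM. On TMM-scaled counts 12, 25 and 12 did not, a comparison added after the data were seen. Overlap was not counted over all genes called, so these counts are not read as a trait of the photosynthesis genes. Of the 80 genes, 75 were tested. The other 5 were below the minimum, namely an LHCB1 gene (LOC_Os01g52240), copies of the plastid genes PetA, PsbE and PsbK, and LOC_Os10g32405 of the PsbP family. LOC_Os01g52240 (chromosome 1, 30030998 to 30032054) lies within a gene of starch synthesis on the opposite strand, and it had at most 0.0616 FPKM.

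The estimated counts of a WR04-6 library summed to between 51209499 and 72494532, and those of a QSZ library to between 33280479 and 68909607. The 2 QSZ libraries at 10 DAI had the lowest totals, and in them scarce genes are measured least precisely. By the paper's quality overview, these 2 libraries also had the lowest shares of valid reads. The strand used in counting is not given in the sources used here, so reads of PsbW (LOC_Os01g56680), PsaF, PsbQ, leaf FNR 1 and PNSL3 (LOC_Os07g01480), which each overlap a gene on the opposite strand, may include reads of that neighbour. Reads of the LHCB1 genes, of the adjacent PsbR genes on chromosome 7 and of the copies of plastid genes can likewise be split among similar sequences, and their values are uncertain for that reason.

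The number of photosynthesis genes higher in WR04-6 than in QSZ was greatest at 12 DAI, as was that of all genes tested. At 10 DAI 2 of the 75 tested genes were higher and 10 were lower in WR04-6, against 12.1% and 11.4% of all genes tested. At 12 DAI 16 were higher and 10 were lower, which is 21.3% and 13.3% of the 75, against 16.3% and 13.2% of all genes. At 14 DAI 4 were higher and 9 were lower, against 10.5% and 10.9% of all genes. The lower shares were thus near those of all genes at each time. The higher shares were below those of all genes at 10 and 14 DAI and above at 12 DAI, a difference that was not tested. TMM scaling allows for differences in RNA composition. Without it the median log2FC of all genes at 12 DAI moved from 0.06 to 0.44. In that setting 22 of the 75 photosynthesis genes were higher and 6 were lower, beside 5258 and 2005 of all 21949 genes. With TMM the all-gene counts were 3582 and 2897, so the shift was not particular to the photosynthesis genes.

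In all, 29 of the 75 genes were DEGs at 1 or more times and 46 at none, and 0 were DEGs in opposite directions. Only 8 were DEGs at all 3 times. A PsbR gene (LOC_Os07g05360) and a copy of PsbB were higher in WR04-6 throughout. LHCB7, PetC, root ferredoxin, ferredoxin C 1, the ferredoxin LOC_Os04g33630 and PNSL3 (LOC_Os07g01480) were lower throughout. The largest single pattern among the genes called was that of 12 called higher at 12 DAI alone. These patterns were not counted over all genes tested, whose higher share was greatest at 12 DAI too. They are therefore not read as particular to the photosynthesis genes.

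**Figure D1:**
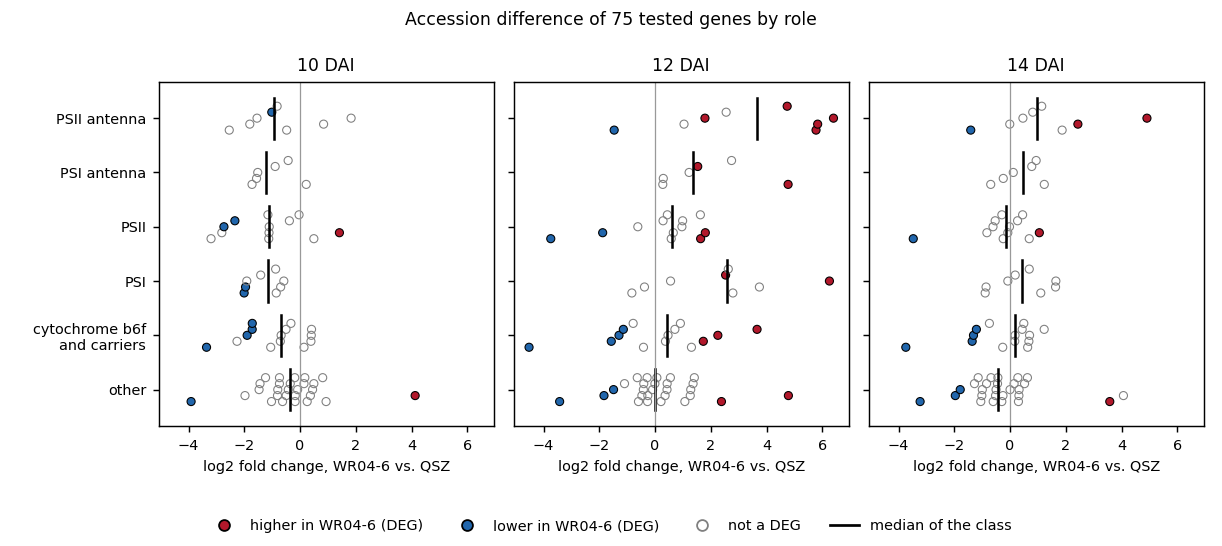
Log2 fold change of WR04-6 vs. QSZ (x axis) for the 75 tested genes in 6 role classes (rows) at 10, 12 and 14 DAI (panels). Each point is a gene, filled where it was a DEG, and the vertical bar is the median of the class, which for the PSII antenna was -0.92 at 10 DAI, 3.64 at 12 DAI and 0.97 at 14 DAI.

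Across the 34 tested antenna and photosystem genes, the median log2FC of WR04-6 vs. QSZ was -1.11 at 10 DAI, 1.37 at 12 DAI and 0.23 at 14 DAI, beside 0.03, 0.06 and 0.08 over all genes tested. The signs were negative for 29 genes at 10 DAI, positive for 28 at 12 DAI and positive for 19 at 14 DAI. As DEGs, 1 was higher (2.94%) and 5 were lower (14.7%) at 10 DAI, against 12.1% and 11.4% of all genes. At 12 DAI 11 were higher (32.4%) and 3 were lower (8.82%), against 16.3% and 13.2% of all genes. At 14 DAI 3 were higher (8.82%) and 2 were lower (5.88%), against 10.5% and 10.9% of all genes. The 10 DAI median rested on QSZ replicate 3. Without that library it was 0.29 with 11 negative signs, while without WR04-6 replicate 1 it was -2.33 with 14 DEGs lower. The 14 DAI median rested on QSZ libraries as well, being -0.06 with 18 negative signs without replicate 3 and 0.80 with 7 without replicate 2, and it was 0.05 without WR04-6 replicate 2. At 12 DAI the median was 0.52 with 6 DEGs higher without WR04-6 replicate 2, and 6 were also higher without QSZ replicate 2. After quantile normalization the 12 DAI median was 0.88.

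The PSII antenna had the highest median log2FC of the 6 classes at 12 DAI, at 3.64, though this was 1.83 after quantile normalization and 2.53 in limma on log2(FPKM + 0.1). Of its 8 tested genes, 5 were higher in WR04-6 at 12 DAI (LHCB1 from LOC_Os09g17740 and LOC_Os01g41710, LHCB3, LHCB4 and LHCB5) and 1 was lower (LHCB7). These were 62.5% and 12.5%, against 16.3% and 13.2% of all genes. At 10 DAI only LHCB7 was a DEG, and at 14 DAI LHCB1 (LOC_Os09g17740) and LHCB5 were higher and LHCB7 was lower. The summed level of the 9 genes at 12 DAI was 93.2, 168 and 85.2 FPKM in WR04-6, against 16.79, 17.9 and 15.8 FPKM in QSZ, and the groups did not overlap. At 10 DAI it was 312, 157 and 60.3 FPKM in WR04-6, against 54.0 and 265 FPKM in QSZ, and the groups overlapped.

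LHCB1, the most abundant light-harvesting protein of plants, was represented mainly by LOC_Os09g17740 (chromosome 9, 10845678 to 10847156). It had 177, 105 and 41.8 FPKM in WR04-6 at 10 DAI, against 19.6 and 83.9 FPKM in QSZ. At 12 DAI it had 48.3, 77.5 and 42.3 FPKM in WR04-6, against 2.89, 1.76 and 0.282 FPKM in QSZ. At 14 DAI the values were 23.6, 57.8 and 51.9 FPKM in WR04-6, against 0.968, 15.0 and 4.54 FPKM in QSZ. Every WR04-6 library was above every QSZ library at 12 and at 14 DAI, and the groups overlapped at 10 DAI. The log2FC was 4.74 ± 0.97 (SE) at 12 DAI (edgeR, adjusted p = 0.0012) and 2.43 ± 0.87 at 14 DAI (adjusted p = 0.039). The call at 12 DAI stood without each library in turn, and that at 14 DAI was lost without any 1 of WR04-6 replicate 2 or 3 or QSZ replicate 1 or 3.

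The second LHCB1 gene with a call, LOC_Os01g41710 (chromosome 1, 23607348 to 23608583), was low in most libraries. At 12 DAI it had 0.0881, 2.46 and 0.239 FPKM in WR04-6, against 0, 0 and 0.019 FPKM in QSZ (adjusted p = 0.023). This came to 68 fragments in WR04-6 against 1 in QSZ, taking 4 estimated counts as 1 fragment, a ratio of 49.6 for which the 95% counting interval was 8.61 to 1988. WR04-6 replicate 2 was far above its group, and the call was lost without it or without QSZ replicate 1 or 2.

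LHCB5 (CP26; LOC_Os11g13890, chromosome 11, 7659682 to 7662281), a minor antenna protein that links the main antenna to the PSII core, was higher in WR04-6 at 12 and 14 DAI. Its level was 6.59, 12.0 and 6.25 FPKM in WR04-6 at 12 DAI, against 0.200, 0.0395 and 0.0931 FPKM in QSZ. At 14 DAI it was 4.21, 9.35 and 8.38 FPKM in WR04-6, against 0.0842, 0.354 and 0.145 FPKM in QSZ. The groups were far apart at both times, with a log2FC of 5.77 ± 0.99 (adjusted p = 0.0003) at 12 DAI and 4.91 ± 0.94 (adjusted p = 0.00097) at 14 DAI. Both calls held in each of 28 alternative settings. At 10 DAI it had 16.4, 5.92 and 1.87 FPKM in WR04-6, against 0.2997 and 3.59 FPKM in QSZ, and the groups overlapped.

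LHCB4 (CP29; LOC_Os07g37240, chromosome 7, 22316268 to 22317936), another minor antenna protein of PSII, had 1.24, 5.35 and 1.11 FPKM in WR04-6 at 12 DAI, against 0.0955, 0 and 0 FPKM in QSZ (adjusted p = 0.013). The groups did not overlap, and QSZ had 3 fragments in all, which gave a ratio of WR04-6 to QSZ of 47.7 with a counting interval of 16.1 to 233. LHCB3 (LOC_Os07g37550, chromosome 7, 22487421 to 22488766), which forms the trimers of the main antenna with LHCB1 and LHCB2, had 19.1, 32.6 and 17.05 FPKM in WR04-6, against 4.12, 4.46 and 6.58 FPKM in QSZ at 12 DAI. It too did not overlap, with a log2FC of 1.79 ± 0.59 (adjusted p = 0.023), a call lost without WR04-6 replicate 2, QSZ replicate 1 or QSZ replicate 2.

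LHCB2 and LHCB6 (CP24) were not DEGs between the accessions at any time. LHCB2 (LOC_Os03g39610) had 4.23, 13.8 and 4.16 FPKM in WR04-6 at 12 DAI, against 0.559, 1.59 and 0.747 FPKM in QSZ. LHCB6 (LOC_Os04g38410) had 12.1, 23.4 and 12.5 FPKM in WR04-6, against 6.52, 7.04 and 4.53 FPKM in QSZ at 12 DAI. In both genes every WR04-6 library at 12 DAI was above every QSZ library, though the test did not call them.

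LHCB7 (LOC_Os09g12540, chromosome 9, 7185218 to 7188146), a rarely expressed relative of the antenna proteins, ran the other way. It had 1.66, 1.298 and 1.60 FPKM in WR04-6 at 10 DAI, against 2.18 and 3.096 FPKM in QSZ. The 12 DAI levels were 1.41, 1.24 and 1.52 FPKM in WR04-6, against 2.40, 2.97 and 3.49 FPKM in QSZ, and at 14 DAI 1.69, 1.18 and 1.24 FPKM in WR04-6, against 3.07, 3.27 and 2.67 FPKM in QSZ. The highest WR04-6 library was below the lowest QSZ library at each time. The log2FC was -1.02 ± 0.27 (adjusted p = 0.0081), -1.47 ± 0.25 (adjusted p = 0.00029) and -1.41 ± 0.25 (adjusted p = 0.00054) at 10, 12 and 14 DAI. The calls at 12 and 14 DAI stood without each library in turn, and that at 10 DAI was lost without WR04-6 replicate 2 or QSZ replicate 3.

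**Figure D2:**
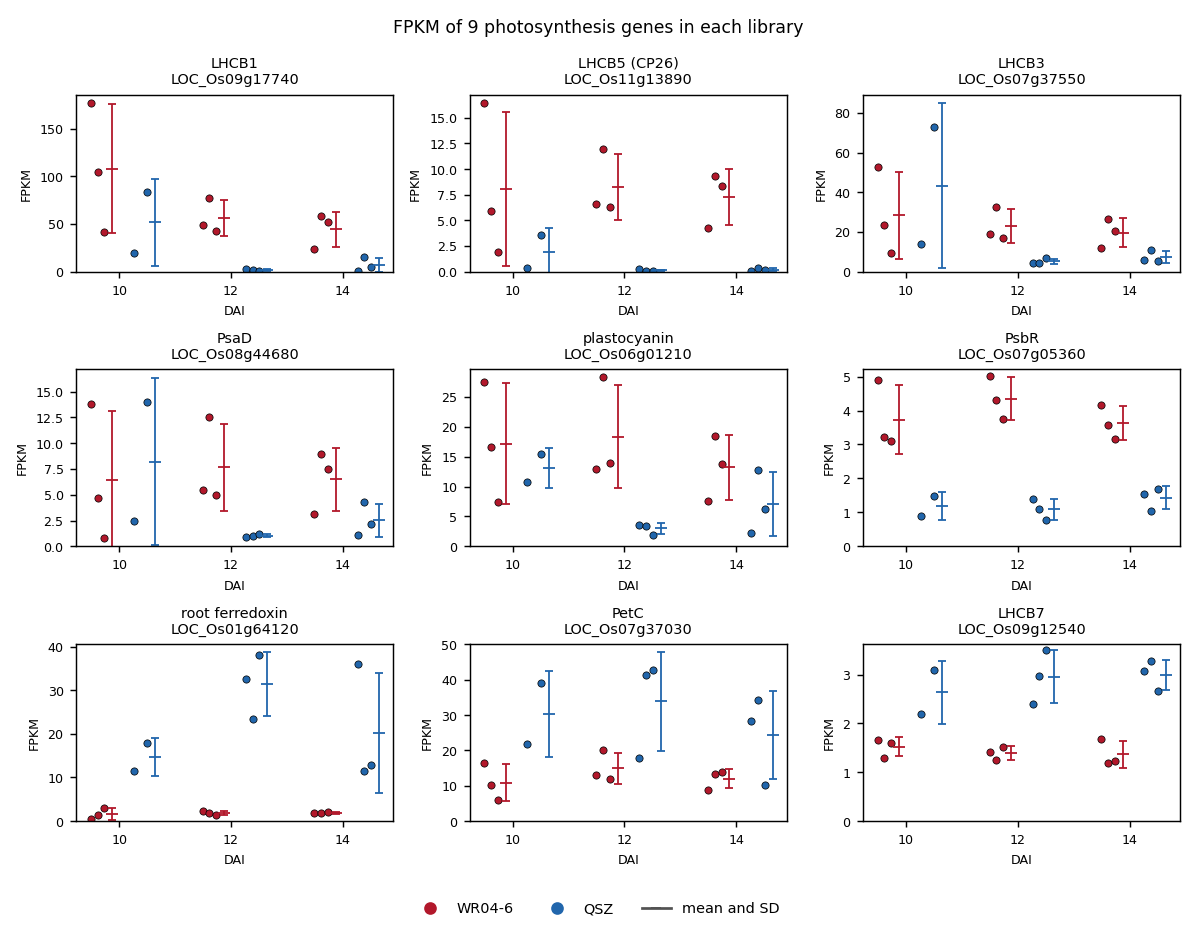
FPKM (y axis) of 9 genes in each library at 10, 12 and 14 DAI (x axis), WR04-6 in red left of QSZ in blue, with the mean and SD beside the points (bars that would pass below 0 end at the axis, and QSZ at 10 DAI has 2 libraries). LHCB1 at 12 DAI lies at 42.3 to 77.5 FPKM in WR04-6 and at 0.282 to 2.89 FPKM in QSZ, while root ferredoxin, PetC and LHCB7 are mostly lower in WR04-6.

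In the PSI antenna, 2 of 6 genes were DEGs, both higher in WR04-6 at 12 DAI, and none were DEGs at 10 or 14 DAI. The 12 DAI share was 33.3%, against 16.3% of all genes. LHCA1 (LOC_Os06g21590, chromosome 6, 12452655 to 12454197) had 2.99, 7.58 and 1.79 FPKM in WR04-6 at 12 DAI, against 0.232, 0.108 and 0 FPKM in QSZ. The groups did not overlap, the log2FC was 4.77 ± 1.42 (adjusted p = 0.013), and the call stood without each library in turn. LHCA5 (LOC_Os02g52650), a minor and weakly bound PSI antenna protein, had 1.72, 1.67 and 1.66 FPKM in WR04-6, against 0.663, 0.557 and 0.127 FPKM in QSZ at 12 DAI, with a log2FC of 1.53 ± 0.58 (adjusted p = 0.041). It was close to the limit, and the call was lost without any 1 of the 3 WR04-6 libraries or of QSZ replicates 2 and 3 at 12 DAI, and without WR04-6 replicate 2 or QSZ replicate 3 at 10 DAI. LHCA3 (LOC_Os02g10390), the most abundant gene of the class, had 4.88, 12.5 and 4.96 FPKM in WR04-6 at 12 DAI, against 1.43, 6.01 and 6.33 FPKM in QSZ, and its groups overlapped. LHCA2, LHCA4 and LHCA6 were not DEGs between the accessions either.

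Among the 12 PSII subunit genes, 1 was higher and 2 were lower in WR04-6 at 10 DAI, 2 were higher and 2 were lower at 12 DAI, and 1 was higher and 1 was lower at 14 DAI. The higher shares were 8.33%, 16.7% and 8.33%, against 12.1%, 16.3% and 10.5% of all genes. The lower shares were 16.7%, 16.7% and 8.33%, against 11.4%, 13.2% and 10.9%. The class median was -1.12, 0.62 and -0.16 at the 3 times, and at 14 DAI it turned positive without TMM scaling (0.14) and in limma on log2(FPKM + 0.1) (0.29). At 12 DAI it was 0.21 after quantile normalization and 1.005 without TMM. No test compared the classes.

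PsbR, a small protein that helps hold the oxygen-evolving complex to PSII, was encoded by 3 genes, and the adjacent pair on chromosome 7 was higher in WR04-6. LOC_Os07g05360 (2453960 to 2456611) had 4.89, 3.21 and 3.097 FPKM in WR04-6 at 10 DAI, against 0.897 and 1.48 FPKM in QSZ. The 12 DAI levels were 5.00, 4.30 and 3.75 FPKM in WR04-6, against 1.39, 1.09 and 0.778 FPKM in QSZ, and at 14 DAI 4.16, 3.58 and 3.17 FPKM in WR04-6, against 1.55, 1.05 and 1.70 FPKM in QSZ. Its libraries were close within each accession and did not overlap at any time. The log2FC was 1.41 ± 0.31 (adjusted p = 0.0022), 1.63 ± 0.27 (adjusted p = 0.00021) and 1.05 ± 0.26 (adjusted p = 0.0061) at 10, 12 and 14 DAI, the last call being lost without WR04-6 replicate 1 or QSZ replicate 2. Its neighbour LOC_Os07g05365 (2456968 to 2458151) was a DEG at 12 DAI only, with 1.72, 1.69 and 1.397 FPKM in WR04-6, against 0.322, 0.301 and 0.398 FPKM in QSZ (log2FC 1.80 ± 0.47, adjusted p = 0.0062). The third gene, LOC_Os08g10020, was not a DEG and ranged at 12 DAI over 0.480 to 6.21 FPKM in WR04-6 and over 0.275 to 1.06 FPKM in QSZ.

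PsbS, which senses excess light and triggers its loss as heat, was lower in WR04-6. The gene LOC_Os01g64960 (chromosome 1, 37696778 to 37699752) had 0.141, 0.949 and 0.406 FPKM in WR04-6 at 12 DAI, against 2.29, 5.14 and 7.81 FPKM in QSZ. At 14 DAI it had 0.302, 0.444 and 0.392 FPKM in WR04-6, against 4.70, 5.06 and 0.688 FPKM in QSZ. The groups did not overlap at either time, and the log2FC was -3.74 ± 1.11 (adjusted p = 0.013) and -3.47 ± 1.10 (adjusted p = 0.023) at 12 and 14 DAI. The call at 12 DAI was lost without WR04-6 replicate 1, and that at 14 DAI without any 1 of the 3 WR04-6 libraries or of QSZ replicates 1 and 2. At 10 DAI the 2 QSZ libraries stood at 0.352 and 6.29 FPKM, and WR04-6 had 1.17, 0.413 and 0.0555 FPKM. The other PsbS gene, LOC_Os04g59440, was not a DEG.

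PsbW, a small PSII subunit, had 2 genes that were lower in WR04-6 at 10 DAI. LOC_Os01g56680 had 5.97, 2.23 and 1.04 FPKM in WR04-6, against 10.95 and 23.7 FPKM in QSZ, with a log2FC of -2.73 ± 0.76 (adjusted p = 0.0098), a call lost without QSZ replicate 3. LOC_Os05g43310 was scarce, at 0.169, 0.0315 and 0.138 FPKM in WR04-6, against 0.564 and 0.459 FPKM in QSZ, with a log2FC of -2.34 ± 0.75 (adjusted p = 0.023). It was also lower at 12 DAI, with a log2FC of -1.88 ± 0.68 (adjusted p = 0.035), although its groups then overlapped in FPKM at 0.0952, 0.332 and 0.136 FPKM in WR04-6 and 0.874, 0.549 and 0.232 FPKM in QSZ. The 10 DAI call of this gene was lost without replicate 2 of either accession, and its 12 DAI call without WR04-6 replicate 1 or 3 or QSZ replicate 1 or 2.

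PsbO and PsbQ of the oxygen-evolving complex were not DEGs between the accessions at any time. PsbO (LOC_Os01g31690), which stabilises the manganese cluster that splits water, had 10.3, 28.1 and 10.4 FPKM in WR04-6 at 12 DAI, against 3.102, 8.74 and 7.25 FPKM in QSZ. Its FPKM groups did not overlap then (those of TMM-scaled counts did), and they overlapped at 10 DAI, with 31.4, 8.93 and 2.91 FPKM in WR04-6, against 10.1 and 43.5 FPKM in QSZ. The other PSII subunit genes PsbY, Psb27 and Psb28 were likewise uncalled between the accessions at each time.

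Of the 8 PSI subunit genes, 2 were lower in WR04-6 at 10 DAI (PsaF and PsaH), 2 were higher at 12 DAI (PsaD and PsaN) and 0 were called at 14 DAI. The lower share at 10 DAI was 25%, against 11.4% of all genes. The higher share at 12 DAI was 25%, against 16.3%. PsaD (LOC_Os08g44680, chromosome 8, 28083293 to 28084298), the docking site of ferredoxin, had 5.47, 12.5 and 5.02 FPKM in WR04-6 at 12 DAI, against 0.854, 1.03 and 1.15 FPKM in QSZ. The groups were well apart (log2FC 2.53 ± 0.85, adjusted p = 0.024), though the call was lost without WR04-6 replicate 2 or QSZ replicate 1 or 2. PsaN (LOC_Os12g08770, chromosome 12, 4506723 to 4507879), a lumenal subunit, had 0.713, 5.27 and 0.445 FPKM in WR04-6, against 0.0449, 0 and 0 FPKM in QSZ (adjusted p = 0.031). These were 110 fragments against 1, a ratio of 80.3 with a counting interval of 14.1 to 3198, and the call was lost without WR04-6 replicate 2 or QSZ replicate 2 or 3.

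PsaH (LOC_Os05g48630), which docks the mobile antenna to PSI, had 8.24, 5.34 and 3.29 FPKM in WR04-6 at 10 DAI, against 16.7 and 20.1 FPKM in QSZ. The log2FC was -1.96 ± 0.33 (adjusted p = 0.00037), and the call held in each alternative setting. At 12 DAI the same gene had 7.27, 11.6 and 7.19 FPKM in WR04-6, against 7.51, 8.99 and 9.57 FPKM in QSZ, which overlapped. PsaF (LOC_Os03g56670), to which plastocyanin binds, had 10.7, 3.44 and 1.67 FPKM in WR04-6 at 10 DAI, against 14.3 and 21.0 FPKM in QSZ (log2FC -2.01 ± 0.63, adjusted p = 0.02). That call was lost without WR04-6 replicate 2 or 3 or QSZ replicate 3. PsaE (LOC_Os07g25430) was uncalled, with 7.00, 18.0 and 8.26 FPKM in WR04-6 at 12 DAI, against 3.47, 7.18 and 6.63 FPKM in QSZ, as were PsaK, PsaL and PsaO.

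**Figure D3:**
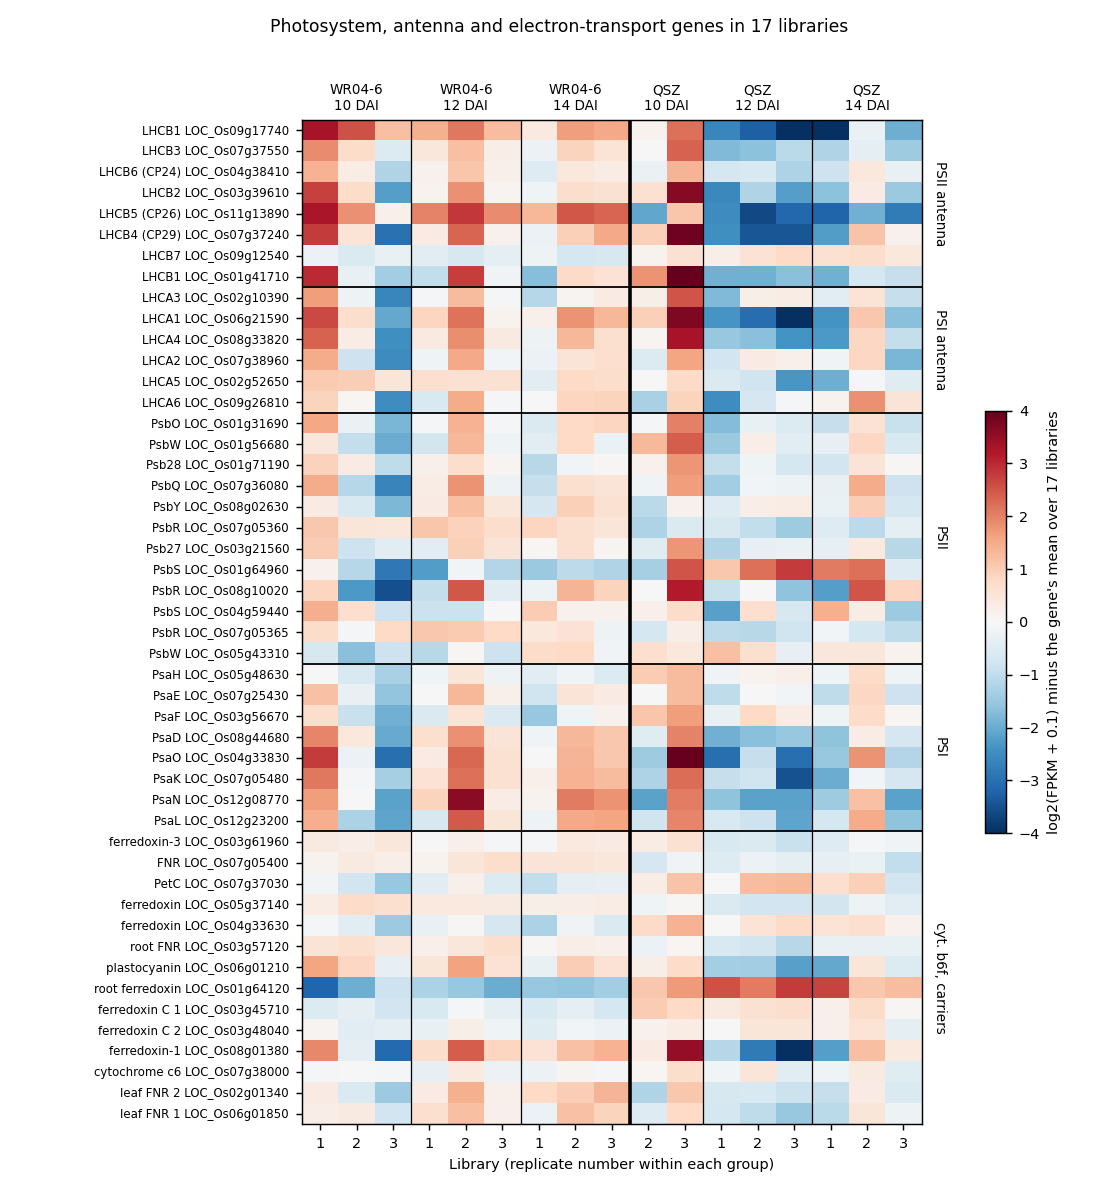
Level of 48 tested antenna, photosystem and electron-transport genes (rows, grouped by role) in the 17 libraries (columns), as log2(FPKM + 0.1) minus the mean of the gene, with colours that saturate at the ends of the scale. WR04-6 replicate 1 at 10 DAI and QSZ replicate 3 at 10 DAI are red over most antenna and photosystem rows, and the 3 libraries of QSZ at 12 DAI are blue over most PSII antenna rows.

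The electron carriers split by protein. Plastocyanin, ferredoxin-1 and leaf FNR 1 were higher in WR04-6 at 12 DAI, while PetC, root ferredoxin, ferredoxin C 1 and the ferredoxin LOC_Os04g33630 were lower at each of the 3 times. The class held 0 higher and 4 lower DEGs of 14 at 10 DAI, 3 higher and 4 lower at 12 DAI, and 0 higher and 4 lower at 14 DAI. Its lower share of 28.6% at each time stood beside 11.4%, 13.2% and 10.9% of all genes.

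Plastocyanin (LOC_Os06g01210, chromosome 6, 149384 to 150246), the copper protein that carries electrons to PSI, had 12.9, 28.3 and 13.9 FPKM in WR04-6 at 12 DAI, against 3.54, 3.45 and 1.95 FPKM in QSZ. The groups did not overlap, with a log2FC of 2.25 ± 0.58 (adjusted p = 0.0055), and the call held in each alternative setting. Ferredoxin-1 (LOC_Os08g01380), the main leaf ferredoxin, had 4.57, 15.1 and 5.07 FPKM in WR04-6, against 1.21, 0.308 and 0 FPKM in QSZ at 12 DAI, with a log2FC of 3.66 ± 1.37 (adjusted p = 0.04). Leaf FNR 1 (LOC_Os06g01850), which passes the electrons to NADP+, had 1.19, 1.79 and 0.846 FPKM in WR04-6, against 0.399, 0.304 and 0.184 FPKM in QSZ, with a log2FC of 1.73 ± 0.57 (adjusted p = 0.023). The calls of ferredoxin-1 and leaf FNR 1 were lost without WR04-6 replicate 2 or QSZ replicate 2 or 3, and that of ferredoxin-1 also without WR04-6 replicate 3.

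Root ferredoxin (LOC_Os01g64120, chromosome 1, 37241155 to 37242103), an isoform of plastids that do not photosynthesise, had the most negative log2FC among the genes called at 12 and at 14 DAI. It had 0.519, 1.32 and 3.03 FPKM in WR04-6 at 10 DAI, against 11.6 and 17.8 FPKM in QSZ. At 12 DAI it had 2.21, 1.81 and 1.28 FPKM in WR04-6, against 32.5, 23.5 and 38.01 FPKM in QSZ, and at 14 DAI 1.84, 1.74 and 1.99 FPKM in WR04-6, against 36.0, 11.5 and 12.8 FPKM in QSZ. The ranges were far apart at each time. The log2FC was -3.36 ± 0.61 (adjusted p = 0.00058), -4.52 ± 0.61 (adjusted p = 4.1e-05) and -3.74 ± 0.59 (adjusted p = 0.00021), and the 3 calls held in each alternative setting.

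PetC (LOC_Os07g37030, chromosome 7, 22184376 to 22187030), the Rieske iron-sulfur protein of the b6f complex, had 16.3, 10.3 and 6.07 FPKM in WR04-6 at 10 DAI, against 21.8 and 39.0 FPKM in QSZ. At 12 DAI it had 13.1, 20.03 and 11.8 FPKM in WR04-6, against 17.8, 41.3 and 42.8 FPKM in QSZ, and at 14 DAI 8.81, 13.3 and 13.9 FPKM in WR04-6, against 28.3, 34.4 and 10.3 FPKM in QSZ. Only the 10 DAI groups did not overlap in FPKM, since 1 QSZ library was low at each later time, and on TMM-scaled counts the 12 DAI groups did not overlap either. The log2FC was -1.72 ± 0.50 (adjusted p = 0.013), -1.57 ± 0.46 (adjusted p = 0.012) and -1.31 ± 0.46 (adjusted p = 0.034). The call at 14 DAI was lost in 11 of the 28 settings, 5 of which left out a 14 DAI library, and that at 10 DAI was lost without QSZ replicate 3.

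Ferredoxin C 1 (LOC_Os03g45710), a ferredoxin-like protein with an extended end, had 6.26, 7.09 and 5.40 FPKM in WR04-6 at 10 DAI, against 18.7 and 16.02 FPKM in QSZ, and its groups did not overlap at any time. Its log2FC was -1.72 ± 0.23 (adjusted p = 5e-05), -1.29 ± 0.21 (adjusted p = 0.00019) and -1.21 ± 0.21 (adjusted p = 0.00044) at 10, 12 and 14 DAI, the last call being lost without QSZ replicate 2. LOC_Os04g33630, a ferredoxin by its KEGG entry, had 11.3, 8.67 and 4.19 FPKM in WR04-6 at 10 DAI, against 20.1 and 30.8 FPKM in QSZ. Its log2FC was -1.90 ± 0.39 (adjusted p = 0.0013), -1.14 ± 0.35 (adjusted p = 0.016) and -1.36 ± 0.35 (adjusted p = 0.0076), and its groups overlapped at 12 DAI, where the call was lost without WR04-6 replicate 3 or QSZ replicate 3.

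The most abundant carrier genes changed less. Ferredoxin-3 (LOC_Os03g61960), a root isoform in maize, had 132, 154 and 128 FPKM in WR04-6 at 12 DAI, against 86.3, 89.3 and 71.5 FPKM in QSZ. It was the most abundant of the 80 genes on average over the 17 libraries, and its groups at 12 DAI did not overlap, but it did not reach the log2FC limit at any time. LOC_Os07g05400, an FNR by its KEGG entry, had 21.8, 27.5 and 32.2 FPKM in WR04-6 at 12 DAI, against 13.6, 16.6 and 15.2 FPKM in QSZ, and was not a DEG either. Root FNR (LOC_Os03g57120) was also uncalled, but its direction at 12 DAI was opposite to that of root ferredoxin. It had 14.2, 16.9 and 20.1 FPKM in WR04-6 then, against 8.02, 7.39 and 5.67 FPKM in QSZ, without overlap.

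Among the 14 tested other genes that were not plastid copies, 1 was lower in WR04-6 at 10 DAI and 3 were lower at 12 and at 14 DAI, with 0 higher. The lower shares were 7.14%, 21.4% and 21.4%, against 11.4%, 13.2% and 10.9% of all genes. The lower genes encode PNSL proteins, which in Arabidopsis are lumenal subunits of the chloroplast NDH complex, a pump for cyclic electron flow around PSI. PNSL3 from LOC_Os07g01480 (chromosome 7, 306009 to 307555) had 0.223, 0.0559 and 0.0526 FPKM in WR04-6 at 10 DAI, against 1.41 and 1.54 FPKM in QSZ. The 12 DAI levels were 0.0468, 0.258 and 0.300 FPKM in WR04-6, against 0.887, 1.65 and 2.64 FPKM in QSZ, and at 14 DAI 0.0460, 0.244 and 0.255 FPKM in WR04-6, against 1.46, 2.01 and 0.930 FPKM in QSZ. It was scarce in WR04-6 at all times, with a log2FC of -3.91 ± 0.79 (adjusted p = 0.0013), -3.42 ± 0.73 (adjusted p = 0.0016) and -3.23 ± 0.73 (adjusted p = 0.0031), and the calls held in each alternative setting.

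A second PNSL3 gene (LOC_Os04g44190) and PNSL2 (LOC_Os02g36850) were lower at 12 and 14 DAI. The second PNSL3 gene had 0.768, 0.366 and 0.578 FPKM in WR04-6 at 14 DAI, against 2.87, 1.36 and 1.302 FPKM in QSZ, with a log2FC of -1.96 ± 0.56 (adjusted p = 0.013). PNSL2 had 0.313, 0.701 and 0.759 FPKM in WR04-6, against 2.07, 2.02 and 0.934 FPKM in QSZ at 14 DAI, with a log2FC of -1.79 ± 0.54 (adjusted p = 0.017). The groups were apart at 14 DAI in both genes and overlapped at 12 DAI, where the log2FC was -1.49 ± 0.55 (adjusted p = 0.037) for LOC_Os04g44190 and -1.83 ± 0.53 (adjusted p = 0.011) for PNSL2. The 14 DAI calls were lost without QSZ replicate 1 in both genes, without WR04-6 replicate 2 in LOC_Os04g44190 and without WR04-6 replicate 1 in PNSL2. The 12 DAI calls were lost without QSZ replicate 2 in both genes, and in LOC_Os04g44190 also without WR04-6 replicate 1 or 2 or QSZ replicate 3. PNSL1 was not a DEG.

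Several genes carry a photosynthesis entry in the annotation but are described otherwise, and these were not DEGs. LOC_Os09g30350, described as a WPP domain-interacting protein and holding the entry of PsaG, had 15.3, 15.7 and 14.7 FPKM in WR04-6 at 12 DAI, against 13.9, 13.2 and 15.0 FPKM in QSZ. Its 17 values spanned only 13.2 to 15.7 FPKM, and it was not a DEG, although on TMM-scaled counts WR04-6 lay below QSZ without overlap at each time. The starch synthase gene LOC_Os01g52250 and 4 genes on chromosome 5 with the PetC entry were not DEGs either.

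The nuclear copies of plastid genes were nearly all at very low levels, and 2 of 13 tested copies were DEGs. Both were higher in WR04-6 at 12 DAI (15.4%), near the 16.3% of all genes. The PsbB copy (LOC_Os10g21310, chromosome 10, 10875907 to 10877568) had 1.29, 1.39 and 1.15 FPKM in WR04-6 at 10 DAI, against 0.115 and 0 FPKM in QSZ. It had 1.10, 1.57 and 0.866 FPKM in WR04-6 at 12 DAI, against 0.00979, 0.0606 and 0.0121 FPKM in QSZ, and at 14 DAI 1.14, 1.12 and 1.15 FPKM in WR04-6, against 0.171, 0.0321 and 0.0093 FPKM in QSZ. The 9 WR04-6 libraries lay between 0.866 and 1.57 FPKM, and the 8 QSZ libraries between 0 and 0.171 FPKM. At 14 DAI the log2FC was 3.58 ± 0.92 (adjusted p = 0.0072). At 12 DAI 117 fragments stood against 3, a ratio of 28.5 with a counting interval of 9.50 to 140 (adjusted p = 0.0014), and at 10 DAI 127 against 2, a ratio of 19.9 with an interval of 5.38 to 166 (adjusted p = 0.011). Only the 10 DAI call depended on 1 library, QSZ replicate 3.

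A PsbA copy (LOC_Os08g35420) was higher in WR04-6 at 12 DAI, at 0.496, 0.125 and 0.371 FPKM, against 0.0149, 0.0296 and 0.0779 FPKM in QSZ (adjusted p = 0.025). Its 23 fragments against 3 gave a ratio of 5.59 with a counting interval of 1.69 to 29.1, and its call was lost without WR04-6 replicate 1 or 3 or QSZ replicate 1 or 2. Over all 16 copies the summed level was 7.99 to 10.3 FPKM in WR04-6 and 4.07 to 8.39 FPKM in QSZ. Counts of this size, from sequences shared with the plastid genome, do not separate transcripts of the nuclear copy from those of the plastid.

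With time, the changes called were in QSZ and downward between 10 and 12 DAI. In QSZ at 12 vs. 10 DAI, 14 of the 75 genes fell and 0 rose, against 7.72% of all genes lower and 5.55% higher. Of the 34 antenna and photosystem genes 11 fell, which is 32.4%, and their median log2FC was -1.69 with 30 negative signs. The 14 were LHCB1 (LOC_Os09g17740 and LOC_Os01g41710), LHCB2, LHCB3, LHCB4, LHCB5, LHCA1, LHCA4, PsaD, PsbW (LOC_Os01g56680), Psb28, plastocyanin, ferredoxin-1 and ferredoxin-3, so 6 of the 8 tested PSII antenna genes. The 2 QSZ libraries at 10 DAI differed greatly, and without replicate 3 the median of the 34 was -0.50 with 25 negative signs and only 1 of the 14 calls was left.

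That call was LHCB1 from LOC_Os09g17740, with 2.89, 1.76 and 0.282 FPKM at 12 DAI, against 19.6 and 83.9 FPKM at 10 DAI (log2FC -4.83 ± 1.01, adjusted p = 0.0036). Its call held in each alternative setting. LHCB5 had 0.200, 0.0395 and 0.0931 FPKM at 12 DAI, against 0.2997 and 3.59 FPKM at 10 DAI (log2FC -3.89 ± 0.97, adjusted p = 0.0093). LHCA1 had 0.232, 0.108 and 0 FPKM at 12 DAI, against 3.26 and 22.6 FPKM at 10 DAI (log2FC -6.62 ± 1.55, adjusted p = 0.0067). In each of these genes the lower QSZ library at 10 DAI was still above the 3 libraries at 12 DAI.

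LHCB3 in QSZ had 4.12, 4.46 and 6.58 FPKM at 12 DAI, against 13.9 and 72.9 FPKM at 10 DAI (log2FC -2.91 ± 0.65, adjusted p = 0.0053). LHCB4 had 3 fragments in the 3 libraries at 12 DAI, against 273 in the 2 libraries at 10 DAI (adjusted p = 0.0075), and LHCB1 from LOC_Os01g41710 had 1 against 154 (adjusted p = 0.0095). Ferredoxin-3 was the least changed of the 14, with 86.3, 89.3 and 71.5 FPKM at 12 DAI, against 162 and 204 FPKM at 10 DAI (log2FC -1.02 ± 0.16, adjusted p = 0.00074). These comparisons share the QSZ libraries of 12 DAI with the accession comparison at 12 DAI, so the lower QSZ values enter both.

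In QSZ at 14 vs. 12 DAI 0 genes were called, with 8 of 75 at an unadjusted p under 0.05 in edgeR, 1 called by DESeq2 and 0 by limma, and 0.282% of all genes were called. At 14 vs. 10 DAI LHCB3 alone fell (log2FC -2.50 ± 0.65, adjusted p = 0.041), with 1.62% of all genes called, and this call was lost in 15 of 28 settings. In WR04-6, edgeR called 0 of the 75 genes at 12 vs. 10, 14 vs. 12 and 14 vs. 10 DAI. In that order, at an unadjusted p under 0.05 there were 3, 4 and 6 genes, DESeq2 called 0, 1 and 0, and limma on log2(FPKM + 0.1) called 0, 1 and 0. Few genes of any kind were called in WR04-6, at 0.0273%, 0.688% and 0.241% of all genes.

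Whether the accession difference itself changed over the 3 times was tested by the accession by time interaction. Of the 75 genes 1 was called, against 8.98% of all genes, and 14 had an unadjusted p under 0.05. That gene was LOC_Os10g32540 (chromosome 10, 17040042 to 17047633), of the PsbP family by its KEGG entry. It had 18.3, 13.3 and 14.8 FPKM in WR04-6 at 10 DAI, against 9.86 and 10.4 FPKM in QSZ, and 14.9, 14.6 and 12.95 FPKM in WR04-6 at 12 DAI, against 17.6, 16.4 and 16.98 FPKM in QSZ. At 14 DAI it had 16.2, 18.8 and 17.2 FPKM in WR04-6, against 14.5, 11.7 and 12.4 FPKM in QSZ. In FPKM, WR04-6 was above QSZ without overlap at 10 and 14 DAI and below it at 12 DAI, but on TMM-scaled CPM (counts relative to the scaled library total), the scale of the test, the 14 DAI groups overlapped at 50.2 to 57.4 in WR04-6 and 43.1 to 56.4 in QSZ. The log2FC was 0.37 ± 0.14 at 10 DAI, -0.64 ± 0.12 at 12 DAI and 0.15 ± 0.12 at 14 DAI, each short of the limit of 1. The adjusted p of the interaction was 0.0145 in edgeR and 5.4e-05 to 0.0456 over 27 refits.

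For the other 74 genes the difference at 12 DAI was therefore not shown by edgeR to differ from those at 10 and 14 DAI, including the antenna genes whose medians changed sign. DESeq2 called 9 genes in the same test, namely LHCB3, LHCB4, LHCB5, LHCA1, PsaH, PsbW (LOC_Os01g56680), root FNR, ferredoxin-3 and LOC_Os10g32540.

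In most groups, the libraries differed among themselves in the same direction over nearly all antenna and photosystem genes. In WR04-6 at 10 DAI replicate 1 was the highest library in 33 of 34 genes and replicate 3 the lowest in 30, against 45.3% and 48.4% of all genes tested. In QSZ at 10 DAI replicate 3 was the higher in 33 of 34, against 61.7% of all genes. Replicate 2 was the highest in 29 of 34 in WR04-6 at 12 DAI and in 30 of 34 in QSZ at 14 DAI, against 34.01% and 33.6% of all genes. The order was less uniform in WR04-6 at 14 DAI. There replicate 2 was the highest in 23 of 34 and replicate 1 the lowest in 28, against 32.4% and 36.6% of all genes. In QSZ at 12 DAI no library led, with 10, 13 and 11 genes. The summed level of the 35 genes shows the same spread, at 495, 219 and 86.1 FPKM in WR04-6 at 10 DAI, against 146 and 563 FPKM in QSZ.

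At 12 DAI that sum was 170, 355 and 163 FPKM in WR04-6, against 55.1, 93.9 and 82.1 FPKM in QSZ, without overlap. At 14 DAI it was 108, 234 and 208 FPKM in WR04-6, against 72.4, 182 and 74.2 FPKM in QSZ, and the groups overlapped. At 10 DAI the highest library of a group was several times its lowest in both accessions.

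Genes that mark other parts of the seed also varied among the libraries. The summed level of 9 storage protein genes (8 glutelins and 1 globulin of the starchy endosperm) was 2958, 5816 and 10563 FPKM in WR04-6 at 10 DAI, against 13214 and 7169 FPKM in QSZ, so the library with the highest photosystem sum had the lowest storage sum in each accession. All 9 storage genes were lowest in WR04-6 replicate 1 and in QSZ replicate 3. At 12 DAI the storage sum was 4810, 6469 and 5321 FPKM in WR04-6, against 25241, 11040 and 11004 FPKM in QSZ, without overlap, and 4 of the 9 genes were lower and 1 was higher in WR04-6. There replicate 2 of WR04-6 had both the highest photosystem sum and the highest storage sum.

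At 14 DAI the storage sum was 3984, 3143 and 6770 FPKM in WR04-6, against 10129, 13016 and 27204 FPKM in QSZ, with 5 genes lower and 1 higher in WR04-6. The QSZ library highest in the photosystem sum there was between the others in the storage sum. The summed level of 4 alpha-amylase genes of aleurone and scutellum ranged from 231 to 732 FPKM in WR04-6 and from 384 to 1551 FPKM in QSZ, with 1, 3 and 2 genes lower at 10, 12 and 14 DAI. PCNA, a replication factor of dividing cells, had 54.0, 52.8 and 39.4 FPKM in WR04-6 at 12 DAI, against 31.2, 10.4 and 4.52 FPKM in QSZ (log2FC 1.32 ± 0.51, adjusted p = 0.045), a call lost on leaving out any 1 of 12 libraries. No storage, amylase or PCNA gene was at 0 throughout a group. The part of tissue make-up and of the stage of germination in the photosynthesis results was not tested.

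**Figure D4:**
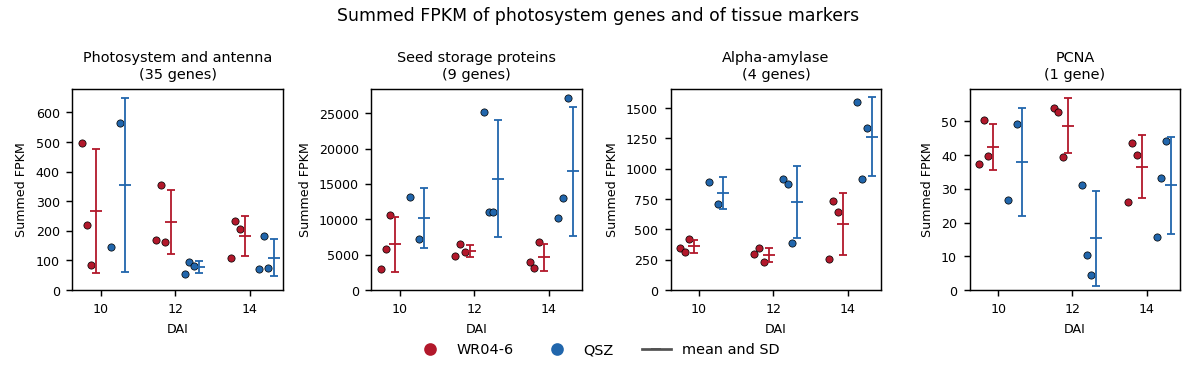
Summed FPKM (y axis) of the 35 antenna and photosystem genes, 9 storage protein genes, 4 alpha-amylase genes and PCNA in each library at 10, 12 and 14 DAI, WR04-6 in red left of QSZ in blue, with mean and SD. At 12 DAI the photosystem sum is 163 to 355 FPKM in WR04-6 and 55.1 to 93.9 FPKM in QSZ, and the storage sum is 4810 to 6469 FPKM in WR04-6 and 11004 to 25241 FPKM in QSZ.

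GLK1 and GLK2 are transcription factors that promote LHC and chlorophyll synthesis genes in plants, and both were higher in WR04-6 at 12 DAI. GLK1 (LOC_Os06g24070) had 3.92, 4.68 and 2.97 FPKM in WR04-6, against 0.612, 0 and 0.0251 FPKM in QSZ, with a log2FC of 3.82 ± 1.25 (adjusted p = 0.021). It was not called at 10 or 14 DAI, where the groups overlapped, and its 12 DAI call was lost without QSZ replicate 2 or 3. GLK2 (LOC_Os01g13740) was higher at all times, with 5.68, 3.69 and 3.97 FPKM in WR04-6 at 10 DAI, against 1.02 and 2.02 FPKM in QSZ, and 4.85, 4.85 and 3.22 FPKM in WR04-6 at 12 DAI, against 1.45, 1.498 and 0.898 FPKM in QSZ. At 14 DAI it had 2.78, 4.23 and 3.51 FPKM in WR04-6, against 0.893, 1.84 and 1.39 FPKM in QSZ. Its groups never overlapped, and the log2FC was 1.33 ± 0.35 (adjusted p = 0.0075), 1.38 ± 0.30 (adjusted p = 0.002) and 1.07 ± 0.30 (adjusted p = 0.012). Its 10 DAI call was lost without QSZ replicate 2, and its 14 DAI call without WR04-6 replicate 2 or QSZ replicate 1.

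Of 10 genes of the chlorophyll branch, 1, 2 and 2 were higher in WR04-6 at 10, 12 and 14 DAI and 0 were lower. The higher shares were 10%, 20% and 20%, against 12.1%, 16.3% and 10.5% of all genes. With only 10 genes, they are not read as a trait of the branch. CHLD (LOC_Os03g59640), a subunit of the magnesium chelatase that commits protoporphyrin to chlorophyll, was higher at each time, with 16.3, 20.2 and 15.3 FPKM in WR04-6 at 12 DAI, against 4.98, 4.37 and 3.54 FPKM in QSZ (log2FC 1.64 ± 0.23, adjusted p = 6.3e-05), and its 10 DAI call alone was lost on leaving out a library (WR04-6 replicate 1 or QSZ replicate 2). CHLH, another chelatase subunit, was higher at 14 DAI alone (log2FC 1.41 ± 0.40, adjusted p = 0.012). PORA (LOC_Os04g58200), which reduces protochlorophyllide in the light, had 26.8, 43.5 and 23.4 FPKM in WR04-6 at 12 DAI, against 6.70, 1.304 and 0.208 FPKM in QSZ (log2FC 3.17 ± 1.17, adjusted p = 0.038), a call lost without any 1 of the WR04-6 libraries or of QSZ replicates 2 and 3. PORB (LOC_Os10g35370) was not called, with 10.3, 13.9 and 7.29 FPKM in WR04-6, against 4.16, 5.20 and 3.95 FPKM in QSZ at 12 DAI.

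The genes of the Rubisco small subunit (RbcS) differed among themselves. LOC_Os02g05830, much the most abundant of the 4 tested, had 52.9, 61.9 and 60.0 FPKM in WR04-6 at 12 DAI, against 68.8, 134 and 124 FPKM in QSZ, and it was lower in WR04-6 at each time (log2FC -1.69 ± 0.30, -1.29 ± 0.28 and -1.66 ± 0.28, adjusted p = 0.00049, 0.0016 and 0.00035). Its groups did not overlap at 12 DAI. LOC_Os12g19470 was scarce and was higher in WR04-6 at 12 and 14 DAI, with 0.181, 1.15 and 0.200 FPKM in WR04-6 at 12 DAI, against 0.0143, 0 and 0 FPKM in QSZ (adjusted p = 0.014). LOC_Os12g17600 was lower in WR04-6 at 10 and 14 DAI and fell in QSZ at 12 vs. 10 DAI (log2FC -1.49 ± 0.50, adjusted p = 0.038). Of the 28 alternative settings, its call was lost in 8 at 14 DAI and in 6 in QSZ at 12 vs. 10 DAI. The calls of LOC_Os12g19470 were lost in 4 settings at 12 DAI and 4 at 14 DAI, and that of LOC_Os02g05830 in 4 at 12 DAI. Over 4 RbcS genes, 0 were higher and 2 lower at 10 DAI, 1 higher and 1 lower at 12 DAI, and 1 higher and 2 lower at 14 DAI. Their median log2FC was -1.58, 0.27 and -0.56 at the 3 times and -1.83 in QSZ at 12 vs. 10 DAI, and no test compared them with the antenna genes.

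In the wider pathways, the shares called were read against those of all genes tested, which for higher genes were 12.1%, 16.3% and 10.5% and for lower genes 11.4%, 13.2% and 10.9% at the 3 times. Carbon fixation (88 tested genes) had 10 higher (11.4%) and 13 lower (14.8%) DEGs in WR04-6 at 10 DAI. It had 18 higher (20.5%) and 6 lower (6.82%) at 12 DAI, and 11 higher (12.5%) and 7 lower (7.95%) at 14 DAI. The carbon fixation list includes genes described as cytosolic triosephosphate isomerase and cytosolic phosphoglycerate kinase, so its counts are not of chloroplast enzymes alone. Porphyrin and chlorophyll metabolism (58 genes) had 3 higher and 3 lower at 10 DAI, and its shares at the 3 times, 5.17% to 8.62%, were all below those of all genes. Carotenoid synthesis (61 genes) had 10 higher (16.4%) at 12 DAI, near the share of all genes. Its lower genes were 8 (13.1%) at 10 DAI, 11 (18%) at 12 DAI and 12 (19.7%) at 14 DAI. That list includes a gene described as abscisic acid 8'-hydroxylase 1, so its counts are not of carotenoid enzymes alone. The median log2FC at 12 DAI was 0.44, 0.15 and -0.07 in these 3 lists, beside 0.06 over all genes and 1.37 over the antenna and photosystem genes.

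**Figure D5:**
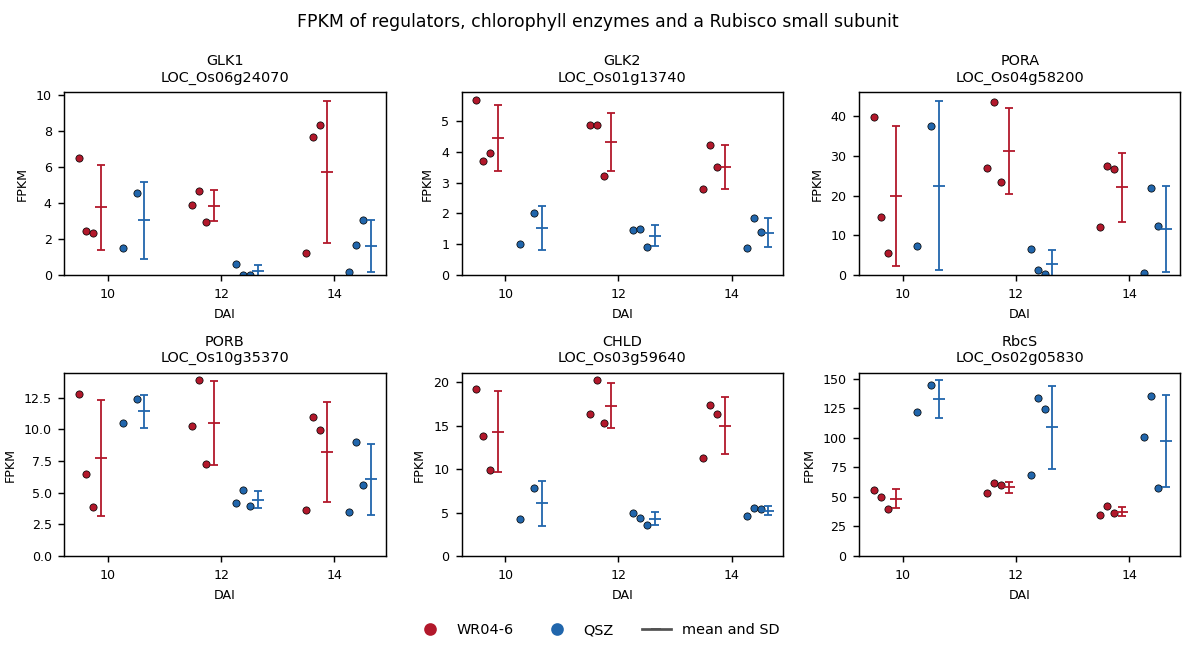
FPKM (y axis) of GLK1, GLK2, PORA, PORB, CHLD and the RbcS gene LOC_Os02g05830 in each library at 10, 12 and 14 DAI, WR04-6 in red left of QSZ in blue, with mean and SD (bars that would pass below 0 end at the axis). GLK2 lies at 2.78 to 5.68 FPKM in WR04-6 and at 0.893 to 2.02 FPKM in QSZ. LOC_Os02g05830 lies at 34.3 to 61.9 FPKM in WR04-6 and 57.4 to 144 FPKM in QSZ. The other RbcS genes are not shown, and the scarce LOC_Os12g19470 was higher in WR04-6 at 12 and 14 DAI.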

How the data were processed

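RNA-seq was done on 17 seed libraries, 9 of WR04-6 and 8 of QSZ. The authors mapped reads to the rice genome, and the submitters' processing notes name cutadapt 1.9, HISAT2 2.0.4 and StringTie 1.3.4d without roles. The authors deposited FPKM and whole-number estimated counts per gene and library, where 1 fragment gave about 4 counts, so intervals were computed on counts divided by 4 and cover counting error only. Coordinates are those in the deposited table, on its rice annotation; no genome was used. Roles and protein names were assigned from its descriptions and KEGG entries. Members and gene lists were chosen with earlier results of these data known.

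edgeR 4.0.16 (R 4.3.3) was fitted to the estimated counts of genes with at least 0.1 FPKM in 2 libraries, with TMM scaling and 1 mean for each of 6 groups over all 17 libraries. The SE is the absolute log2FC over the square root of the F statistic. The interaction test had 2 terms. Alternatives were DESeq2 1.42.0, limma 3.58.1 with pseudocounts of 0.1 or 1, other scalings and filters, a replicate block, an adjusted p limit of 0.01, and leaving out each library. The code was tested on simulated data.

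Genes named by rule were the 2 most abundant of each role, the 5 DEGs of highest and lowest log2FC at each DAI, interaction DEGs and the 3 largest changes over time. LHCA4, LHCA5, LHCB2, LHCB6, LHCB7, PsaD, Psb28, PetC and plastocyanin fell outside it and were named after their values were seen. The same holds for leaf FNR 1, root FNR, ferredoxin-1, ferredoxin C 1, LOC_Os04g33630, LOC_Os07g05365 and the PsbA copy. An RbcS gene without a row in the table was not analysed here.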

Additional observations from a re-analysis of the deposited data

Results flagged for a closer look

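The accession difference of LOC_Os10g32540, of the PsbP family by its KEGG entry, differed between times by the interaction test (edgeR, adjusted p = 0.0145). The log2FC of WR04-6 vs. QSZ was 0.37 ± 0.14 (SE) at 10 DAI. It was -0.64 ± 0.12 at 12 DAI and 0.15 ± 0.12 at 14 DAI. In FPKM all WR04-6 libraries were above those of QSZ at 10 DAI (13.3 to 18.3 against 9.86 and 10.4), below them at 12 DAI (12.95 to 14.9 against 16.4 to 17.6) and above them at 14 DAI (16.2 to 18.8 against 11.7 to 14.5). On TMM-scaled CPM the 14 DAI groups overlapped, at 50.2 to 57.4 in WR04-6 and 43.1 to 56.4 in QSZ. The adjusted p was below 0.05 in 27 of 27 refits, the highest being 0.0456 and the lowest 5.4e-05, and with a limit of 0.01 the gene was not called. Groups held 2 or 3 libraries, too few to look for single samples that stand apart.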

How the results depend on the processing

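Of 124 called pairs of gene and comparison, an adjusted p limit of 0.01 lost 49, limma after quantile normalization or with a pseudocount of 1 lost 38 each, and leaving out 1 library lost at most 27 (QSZ 10 DAI replicate 3). Without 1 library, the 10 DAI lower count was 6 (without QSZ replicate 3) to 19 (without WR04-6 replicate 1), the 12 DAI higher count 8 (without QSZ replicate 2; 9 without WR04-6 replicate 2) to 18, the 14 DAI lower count 5 (without QSZ replicate 1) to 11, the QSZ 12 vs. 10 DAI lower count 1 (without QSZ 10 DAI replicate 3; 7 without QSZ 12 DAI replicate 3) to 16 and its higher count 0 to 1, the QSZ 14 vs. 10 DAI lower count 0 to 4, and the interaction count 1 to 3. Without TMM, the all-gene median log2FC moved by 0.19, 0.38 and 0.30 at 10, 12 and 14 DAI, the all-gene split at 12 DAI was 5258 higher and 2005 lower, against 3582 and 2897, and 6 members were lower at 12 DAI. Limma on log2(FPKM + 0.1) gave 6 lower at 12 DAI, 1 lower in WR04-6 at 14 vs. 12 DAI and 0 in QSZ at 14 vs. 10 DAI, and with a pseudocount of 1 it gave 3 lower at 12 DAI, 4 lower at 14 DAI and 0 in QSZ at 14 vs. 10 DAI. After quantile normalization 10 were higher at 12 DAI, 9 fell in QSZ at 12 vs. 10 DAI and 0 at 14 vs. 10 DAI. DESeq2 called 1 lower in WR04-6 at 14 vs. 12 DAI, 1 higher in QSZ at 12 vs. 10 DAI, 1 higher at 14 vs. 12 DAI, 4 lower at 14 vs. 10 DAI and 9 by interaction. The interaction count was 2 with median-ratio scaling, without TMM, after quantile normalization and at a minimum of 1 FPKM. At an adjusted p limit of 0.01 there were 1 higher at 10 DAI, 6 higher and 4 lower at 12 DAI, 5 lower at 14 DAI, 8 lower in QSZ at 12 vs. 10 DAI, 0 at 14 vs. 10 DAI and 0 by interaction. The causes of these shifts were not tested.

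With the replicate number as a block, 12 were higher at 12 DAI and 0 were lower in QSZ at 14 vs. 10 DAI. Deviations of same-numbered libraries had a median correlation of -0.0068 over 40 pairs (-0.43 to 0.30). Those of different-numbered libraries had 0.011 over 80 pairs (-0.30 to 0.49). No pairing by number was thus seen, but a median over pairs cannot exclude it. Of 66 calls of member genes over these comparisons, 26 stood without each library in turn, 19 of them under every setting. Signs of the 309 uncalled pairs turned in 140 cases. Depth limits the scarcest genes, where 3 or fewer fragments stood in a group.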
